A study of Mus musculus with 10 samples.

Results

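The genes described here are 8 genes of cellular zinc handling, and they were chosen by name and Ensembl gene ID. They are the zinc importers Slc39a4 (Zip4), Slc39a5 (Zip5) and Slc39a8 (Zip8), the exporters Slc30a1 (ZnT1) and Slc30a10 (ZnT10), the metallothioneins Mt1 and Mt2, and Mtf1, the zinc-sensing transcription factor. They are 8 of the 44580 gene IDs with a peak of accessible chromatin, and they hold 37 of 246479 peaks. The assay was ATAC-seq, in which a transposase inserts sequencing adapters into DNA that is not covered by nucleosomes, so that reads pile up over open regions. It was run on purified intestinal epithelial cells (IECs) from the upper small intestine (labelled duodenum, and taken with the start of the jejunum per the study's methods) of 5 wild-type mice (WT1 to WT5) and 5 Zip14 KO mice (KO6 to KO10), and each mouse gave 1 library. Zip14, the product of Slc39a14, is a zinc importer.

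The KO mice carried a targeted deletion of Zip14 in every cell of the body, so the loss was not limited to the epithelium. Both genotypes came from crosses of heterozygous mice backcrossed to C57BL/6, were used as young adults, female unless stated otherwise, and had the same diet, and the labels name no treatment. The cells were sorted by flow cytometry before sequencing. The epithelial identity of the sorted cells was not checked here against marker genes, because no table used here pairs the IDs of those genes with names.

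Zinc enters the cytoplasm through ZIP (Slc39a) proteins and leaves it, for organelles or for the outside, through ZnT (Slc30a) proteins. Metallothioneins are small cysteine-rich proteins that bind zinc and other metals. When zinc rises, Mtf1 binds metal response elements (MREs) in promoters and switches on Mt1, Mt2 and Slc30a1. In the small intestine, Slc39a4 takes up dietary zinc at the apical membrane of enterocytes and Slc39a5 works at the basolateral side.

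The promoters of the metallothioneins and of both exporters are shown because Mtf1 is known to act on the metallothioneins and on Slc30a1 through MREs. Letters in capitals match the MRE core, TGCACNC or TGCGCNC on the strand of the gene, or its complement GNGTGCA or GNGCGCA. Each line holds the 250 bases before the start given by the RefSeq promoter table, 5′ to 3′, on GRCm38.p6, and all 4 genes lie on the plus strand. The first is Mt1 (chr8:94178839-94179088), then Mt2 (chr8:94172368-94172617), Slc30a1 (chr1:191906531-191906780) and Slc30a10 (chr1:185454598-185454847).
Mt1: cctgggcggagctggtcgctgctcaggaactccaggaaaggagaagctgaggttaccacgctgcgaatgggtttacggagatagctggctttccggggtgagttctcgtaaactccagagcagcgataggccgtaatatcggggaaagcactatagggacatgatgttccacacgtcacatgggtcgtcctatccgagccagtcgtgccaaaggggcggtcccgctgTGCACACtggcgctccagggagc
Mt2: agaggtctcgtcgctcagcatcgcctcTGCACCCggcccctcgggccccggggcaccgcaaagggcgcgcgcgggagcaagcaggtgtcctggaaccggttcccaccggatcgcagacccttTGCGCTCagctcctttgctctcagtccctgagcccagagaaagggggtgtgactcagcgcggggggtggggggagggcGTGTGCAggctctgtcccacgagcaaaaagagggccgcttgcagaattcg
Slc30a1: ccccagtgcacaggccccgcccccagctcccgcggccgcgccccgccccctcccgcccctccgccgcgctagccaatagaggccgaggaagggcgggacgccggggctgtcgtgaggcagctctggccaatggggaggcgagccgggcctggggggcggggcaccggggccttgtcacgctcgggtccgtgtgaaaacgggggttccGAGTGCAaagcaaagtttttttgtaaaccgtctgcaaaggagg
Slc30a10: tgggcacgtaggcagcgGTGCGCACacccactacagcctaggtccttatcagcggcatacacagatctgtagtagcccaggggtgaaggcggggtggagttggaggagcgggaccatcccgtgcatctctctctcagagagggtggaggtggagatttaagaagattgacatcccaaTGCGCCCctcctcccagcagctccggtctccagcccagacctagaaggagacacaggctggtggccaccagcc
In both metallothionein genes more cores lie just after the annotated start, in the first 30 bases of Mt1 (chr8:94179089-94179118) and of Mt2 (chr8:94172618-94172647).
Mt1 after the start: tcTGCACTCcgcccgaaaagTGCGCTCggc
Mt2 after the start: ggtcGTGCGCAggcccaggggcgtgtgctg

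Within windows of 300 bases, of which 250 lie before the start, Mt2 held 4 cores and Mt1 held 3. Slc30a1 held 2, at -43 and 31 bases from its start, both on the opposite strand. Slc30a10 held 3 matches, of which a pair on opposite strands at -233 and -232 overlap, so that 2 are distinct. Slc39a5 has 2 annotated starts and a core at -129 of one of them. Slc39a8 also has 2 starts, with a core at -19 of one of them, and Mtf1 had no match in its window. Of 32851 RefSeq promoter windows of this length, 25.7% held at least 1 distinct core, 6.14% held at least 2 and 1.31% held at least 3. Windows of 7 of the 8 genes were used, all but Slc39a4. The RefSeq gene spans of Mt1 and Slc30a1 given below begin inside these windows, at 94178883 and 191906697, so that the core before the start of each lies within the span of its gene. Where transcription begins was not measured, so positions are relative to the annotated start alone, and cores outside the windows were not counted. The peaks carry no coordinates in the files, so a core could not be placed inside or outside a peak.

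**Figure D1:**
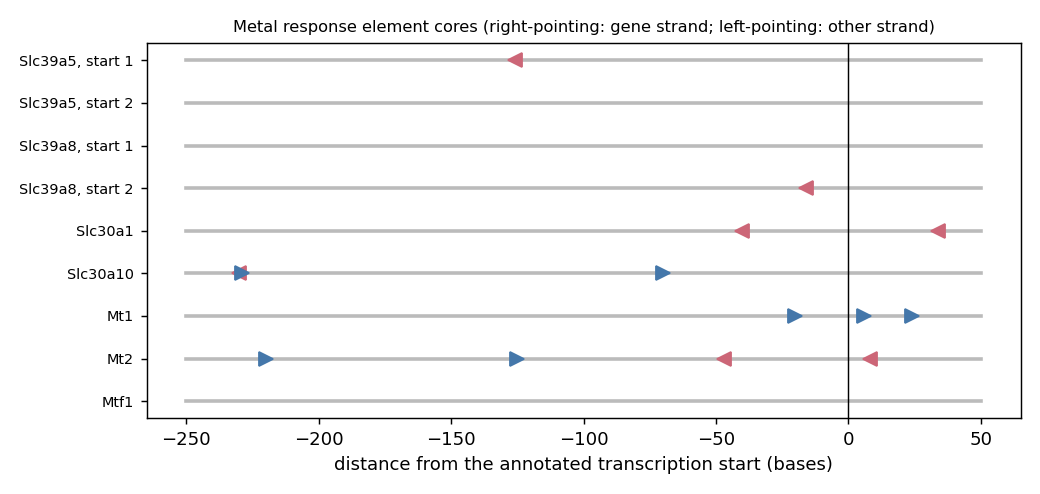
Positions of MRE cores around the annotated starts of 7 zinc genes, with the distance from the start in bases on the horizontal axis and 1 line per start. Right-pointing triangles are cores on the strand of the gene and left-pointing ones on the opposite strand. Mt2 held 4 cores and Mt1 held 3, and the Mtf1 line is empty.

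With the peaks of each gene summed, none of the 8 genes passed an adjusted p of 0.05 between genotypes (edgeR's quasi-likelihood test, Benjamini-Hochberg adjustment over 36715 genes). Of all genes tested 3.91% did, 1.01% lower and 2.9% higher in KO mice. Before adjustment, Slc39a8, Mtf1 and Slc39a4 passed a p of 0.05, all with less accessibility in KO mice and with log2 fold changes (KO minus WT) of -0.29, -0.22 and -0.23. That is 3 of 8 genes, where 11.8% of all genes tested were lower at this threshold and 27.5% passed it in either direction. Slc39a5, Slc30a1 and Mt1 had negative values that did not pass, Slc30a10 was at -0.0024 and Mt2 at 0.07. The median over the 8 genes was -0.18, beside -0.004 over all genes tested, and 7 of 8 values were below 0, as were 50.5% of all genes.

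Across the whole table, log2 fold changes were lower in genes with more counts. When all genes were ranked by counts and split into 4 equal classes, 6 of the 8 genes lay in the class with the most counts, Slc39a5 in the next and Mt2 in the one after that. In the top class the median log2 fold change was -0.12, 83.1% of genes were below 0 and 26.5% were lower at an unadjusted p under 0.05. In the lowest class the median was 0.30. With an offset that follows abundance in each mouse (loess), none of the genes passed an unadjusted p of 0.05 by edgeR, where 19.6% of all genes did, and Slc39a8 was at -0.18 (adjusted p = 0.271).

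Total counts ran from 5202949 to 15775481 in WT mice and from 4731176 to 6094983 in KO mice, and were lower in KO mice (exact two-sided permutation test, p = 0.0397). Peak 3 of ENSMUSG00000022094 had 0 counts in each of the 5 KO mice and 17, 8, 21, 11 and 16 counts in WT1 to WT5. The 8 peaks of this ID were placed in a stretch of chromosome 14 that holds Slc39a14, by an order inferred from the listing and not by coordinates. Peak 3 was chosen after its values were seen, so it is no independent check of the genotype. Values below are in CPM, counts scaled to library size, with factors from TMM over gene sums unless a single peak is named. CPM cannot be compared between genes here, because the widths of the peaks were not given. In bulk chromatin, a lower count in every cell and fewer cells with an open site cannot be told apart.

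**Figure D2:**
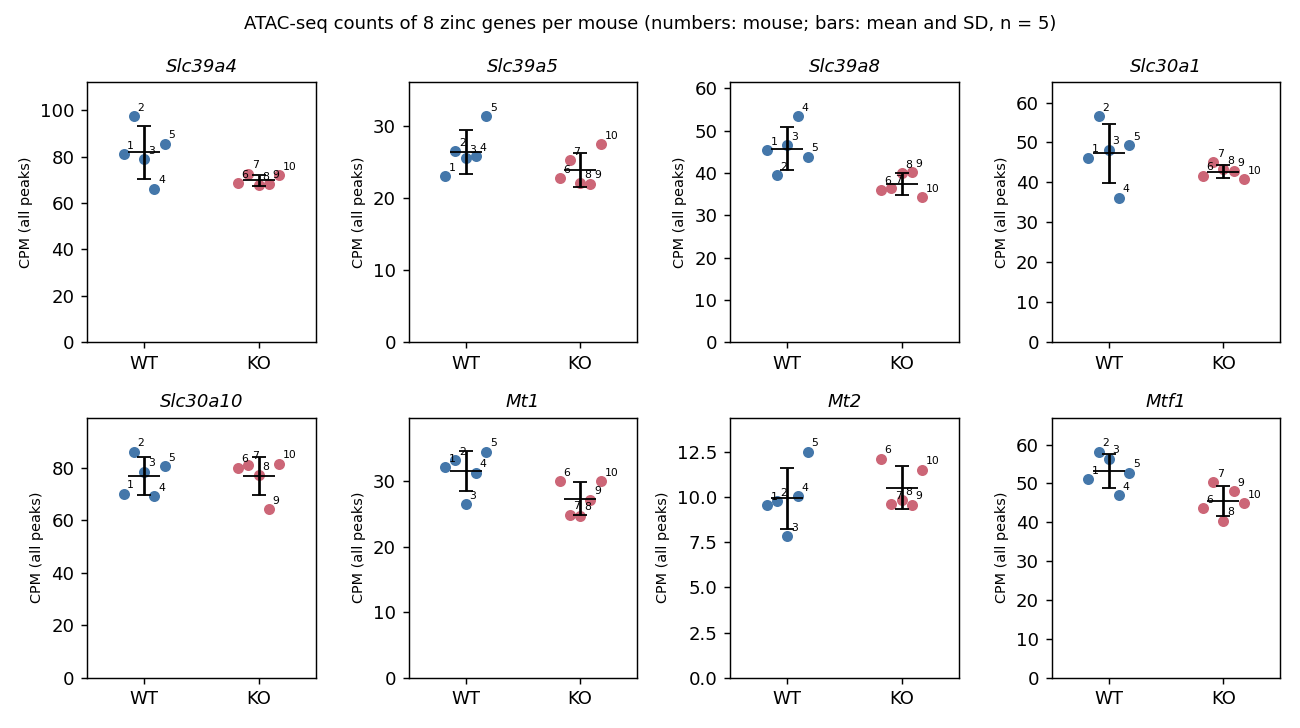
Summed ATAC-seq counts of each gene in CPM, with 1 point per mouse labelled by its number, WT in blue and KO in red. Horizontal marks and bars are the mean and SD of 5 mice. In every panel the ranges of the genotypes overlap, and 3 KO mice lie below every WT mouse for Slc39a5, Slc39a8 and Mtf1.

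Slc39a4 (ENSMUSG00000063354), the apical importer that is mutated in acrodermatitis enteropathica, lies on chromosome 15 (76612383 to 76618506) and has 2 peaks. It measured 81.1, 97.5, 79.0, 66.1 and 85.7 CPM in WT1 to WT5. In KO6 to KO10 it measured 68.5, 72.7, 67.7, 68.4 and 72.0 CPM. Of the WT mice 4 lay above every KO mouse and WT4 lay below all of them. The KO mice were close together, with an SD of 2.30 CPM around 69.8, against 11.3 around 81.9 in WT mice (n = 5 each). The log2 fold change was -0.23 (SE 0.088, 95% interval -0.41 to -0.04), with p = 0.0191 and an adjusted p of 0.116 by edgeR, and the exact permutation test of log2 CPM gave p = 0.0556. Peak 2 held between 96.5% and 98.5% of the counts of the gene in each mouse. Tested as a peak, with TMM over peaks, it had a log2 fold change of -0.14 (95% interval -0.34 to 0.07), with -0.21 without WT4 and -0.0727 without WT2.

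Slc39a5 (ENSMUSG00000039878), the basolateral importer, lies on chromosome 10 (128395927 to 128401276) and has 1 peak. Its values were 23.0, 26.5, 25.5, 25.7 and 31.3 CPM in WT1 to WT5 and 22.7, 25.2, 22.01, 21.9 and 27.4 CPM in KO6 to KO10. KO6, KO8 and KO9 lay below every WT mouse, while KO10 was exceeded by WT5 alone. The log2 fold change was -0.16 (SE 0.105, 95% interval -0.38 to 0.07; adjusted p = 0.337, edgeR).

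Slc39a8 (ENSMUSG00000053897), an importer of zinc, manganese and cadmium, lies on chromosome 3 (135816882 to 135888572) and has 14 peaks, of which 5 had enough counts to be tested. Summed, it measured 45.4, 39.5, 46.5, 53.4 and 43.8 CPM in WT1 to WT5. The KO mice had 36.0, 36.3, 39.9, 40.2 and 34.3 CPM. KO6, KO7 and KO10 lay below every WT mouse, and KO8 and KO9 lay above WT2 alone. The means were 45.7 ± 5.06 and 37.4 ± 2.59 CPM (SD, n = 5 each), a log2 fold change of -0.29 (SE 0.090, 95% interval -0.48 to -0.11). This was the lowest p of the 8 genes, 0.00411 by edgeR, with an adjusted p of 0.0620, and the exact permutation test gave p = 0.0238. The smallest p that 5 against 5 mice allow in that test is 0.00794. Without WT2 the adjusted p was 0.0307, the only omission of a mouse that took any of the 8 genes past the threshold, and 8.87% of all genes passed in that fit.

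Peak 13 was the strongest peak of Slc39a8, with 47.0% to 54.8% of the counts of the gene in each mouse. It measured 23.9, 23.8, 26.8, 31.98 and 25.1 CPM in WT1 to WT5 and 22.2, 20.7, 22.4, 24.3 and 18.5 CPM in KO6 to KO10. All KO mice other than KO9 lay below every WT mouse. Its log2 fold change was -0.28 (SE 0.109, 95% interval -0.51 to -0.05), with p = 0.0180 and an adjusted p of 0.209 by edgeR over 81022 peaks, and the exact permutation test gave p = 0.0238. The unadjusted p by edgeR was above 0.05 with loess offsets (0.0831), with 1 surrogate variable (0.101), without WT4 (0.0542) and without KO10 (0.0527). Peak 9, a weaker one, measured 3.79, 3.15, 4.79, 5.49 and 3.78 CPM in WT1 to WT5 and 3.37, 2.09, 3.58, 3.21 and 2.41 CPM in KO6 to KO10. KO7 and KO10 lay below every WT mouse, and WT2 was the lowest of the WT mice. Peak 9 had a log2 fold change of -0.52 (95% interval -0.997 to -0.04), with p = 0.0360 and an adjusted p of 0.274 by edgeR, and the exact permutation test gave p = 0.0476. Its unadjusted p was above 0.05 by DESeq2, with 1 surrogate variable and without WT3, WT4, KO7 or KO10. The other tested peaks, 8, 10 and 14, had values of -0.06, -0.28 and -0.20, each with an interval that holds 0, and peak 14 was at -0.0929 without KO10. The share of counts in peak 13 was 53.5% in WT and 50.7% in KO mice on average (exact permutation test, p = 0.135), a difference within the spread of the mice.

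**Figure D3:**
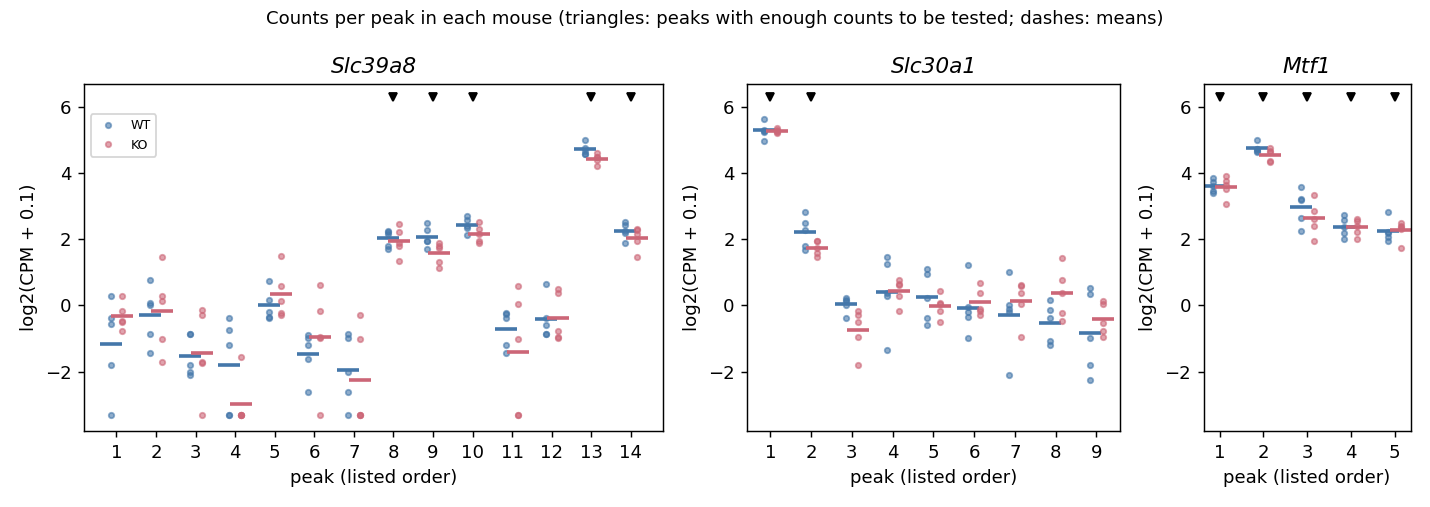
Counts of every peak of Slc39a8, Slc30a1 and Mtf1 as log2(CPM + 0.1), in listed order on the horizontal axis, with 1 point per mouse and a dash at the mean of each genotype. Triangles mark peaks with enough counts to be tested. Peak 13 of Slc39a8, peak 1 of Slc30a1 and peak 2 of Mtf1 each stand above the other peaks of their gene, and the peaks without a triangle hold at most 36 counts in any mouse.

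Slc30a1 (ENSMUSG00000037434), the exporter of the plasma membrane and a target of Mtf1, lies on chromosome 1 (191906697 to 191913248) and has 9 peaks, of which 2 were tested. Summed, it measured 46.2, 56.6, 48.2, 36.1 and 49.3 CPM in WT1 to WT5 and 41.7, 45.0, 43.3, 42.8 and 40.8 CPM in KO6 to KO10. As with Slc39a4, WT4 was below all KO mice and the other 4 WT mice were above them. The log2 fold change was -0.14 (SE 0.098, 95% interval -0.35 to 0.06; adjusted p = 0.350, edgeR). Peak 1, with 73.9% to 81.6% of the counts, had a log2 fold change of -0.02 (95% interval -0.24 to 0.21). Peak 2 measured 3.06, 4.72, 7.02, 3.35 and 5.48 CPM in WT1 to WT5 and 3.77, 3.76, 2.63, 3.21 and 2.89 CPM in KO6 to KO10. Here WT3 and WT5 were highest, and WT1 and WT4 lay within the KO range. The log2 fold change of peak 2 was -0.56 (95% interval -1.08 to -0.04), with p = 0.0352 and an adjusted p of 0.271 by edgeR and p = 0.0873 by the exact permutation test. Its unadjusted p was above 0.05 by DESeq2 and without WT3, WT5, KO8, KO9 or KO10. The difference between both peaks was not tested.

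Slc30a10 (ENSMUSG00000026614), an exporter known chiefly for manganese and also reported to carry zinc, lies on chromosome 1 (185454848 to 185468762), and both of its peaks were tested. It measured 70.2, 86.3, 78.7, 69.3 and 80.7 CPM in WT1 to WT5. The KO mice had 80.1, 81.3, 77.2, 64.2 and 81.6 CPM. KO9 was the lowest of the 10 mice and the other 4 KO mice lay within the WT range. The means were 77.0 ± 7.20 and 76.9 ± 7.30 CPM (SD, n = 5 each), with a log2 fold change of -0.0024 (95% interval -0.18 to 0.18). Its peaks 1 and 2 were at 0.00 and 0.14, with intervals of -0.21 to 0.22 and -0.08 to 0.35, and peak 2 was at 0.21 without WT2.

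Mt1 (ENSMUSG00000031765) and Mt2 (ENSMUSG00000031762) are neighbours on chromosome 8 (94178883 to 94180327 and 94172618 to 94173567). In the listed order the peak of Mt1 directly follows the last of the 3 peaks of Mt2. Mt1 measured 32.1, 33.2, 26.4, 31.2 and 34.5 CPM in WT1 to WT5 and 29.9, 24.8, 24.7, 27.1 and 29.9 CPM in KO6 to KO10. All KO mice lay below all WT mice other than WT3, which fell within the KO range. Its log2 fold change was -0.21 (SE 0.099, 95% interval -0.41 to 0.00), with p = 0.0526 and an adjusted p of 0.186 by edgeR and an exact permutation p of 0.0556. Mt2 measured 9.53, 9.77, 7.83, 10.04 and 12.5 CPM in WT1 to WT5. In KO6 to KO10 it measured 12.1, 9.60, 9.82, 9.57 and 11.5 CPM. All KO values lay inside the WT range. The log2 fold change of Mt2 was 0.07 (SE 0.147, 95% interval -0.24 to 0.37). Peak 3 of Mt2, the nearer to Mt1 in listed order and the strongest of the gene, measured 7.73, 8.32, 5.91, 7.36 and 9.89 CPM in WT1 to WT5 and 11.5, 8.57, 8.85, 8.03 and 9.38 CPM in KO6 to KO10. KO6 was above every WT mouse and WT3 below every KO mouse, and WT1 and WT4 lay below the KO range as well. This peak was at 0.23 (95% interval -0.12 to 0.58; exact permutation test, p = 0.143) and peak 2 at -0.17 (95% interval -0.72 to 0.38). Peak 3 was at 0.13 without WT3, 0.14 without KO6 and 0.35 without WT5, and peak 2 at -0.29 without KO6 and -0.11 without WT4 or WT5. The intervals of the metallothioneins overlap, and the difference between them was not tested.

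Mtf1 (ENSMUSG00000028890) lies on chromosome 4 (124802549 to 124849800), and all 5 of its peaks were tested. Summed, it measured 51.2, 58.2, 56.4, 47.0 and 52.8 CPM in WT1 to WT5. The KO mice had 43.6, 50.3, 40.5, 48.0 and 45.0 CPM. KO6, KO8 and KO10 lay below every WT mouse, and KO7 and KO9 lay above WT4 alone. The means were 53.1 ± 4.40 and 45.5 ± 3.82 CPM (SD, n = 5 each), with a log2 fold change of -0.22 (SE 0.084, 95% interval -0.40 to -0.05). The unadjusted p was 0.0158 and the adjusted p 0.107 by edgeR, and the exact permutation test gave p = 0.0317. No single peak of Mtf1 passed an unadjusted p of 0.05 in this fit, though peaks 2 and 3 did in 3 alternatives each. Peak 2, the strongest, measured 25.5, 31.7, 24.5, 26.6 and 26.2 CPM in WT1 to WT5 and 24.6, 25.1, 20.1, 26.9 and 20.7 CPM in KO6 to KO10. KO8 and KO10 lay below every WT mouse and KO9 above all WT mice other than WT2. Peak 2 was at -0.19 (95% interval -0.41 to 0.04; exact permutation test, p = 0.119), peak 3 at -0.37 (-0.58 without KO10, -0.21 without WT3 and -0.23 without KO8) and peaks 1, 4 and 5 between -0.03 and 0.04.

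**Figure D4:**
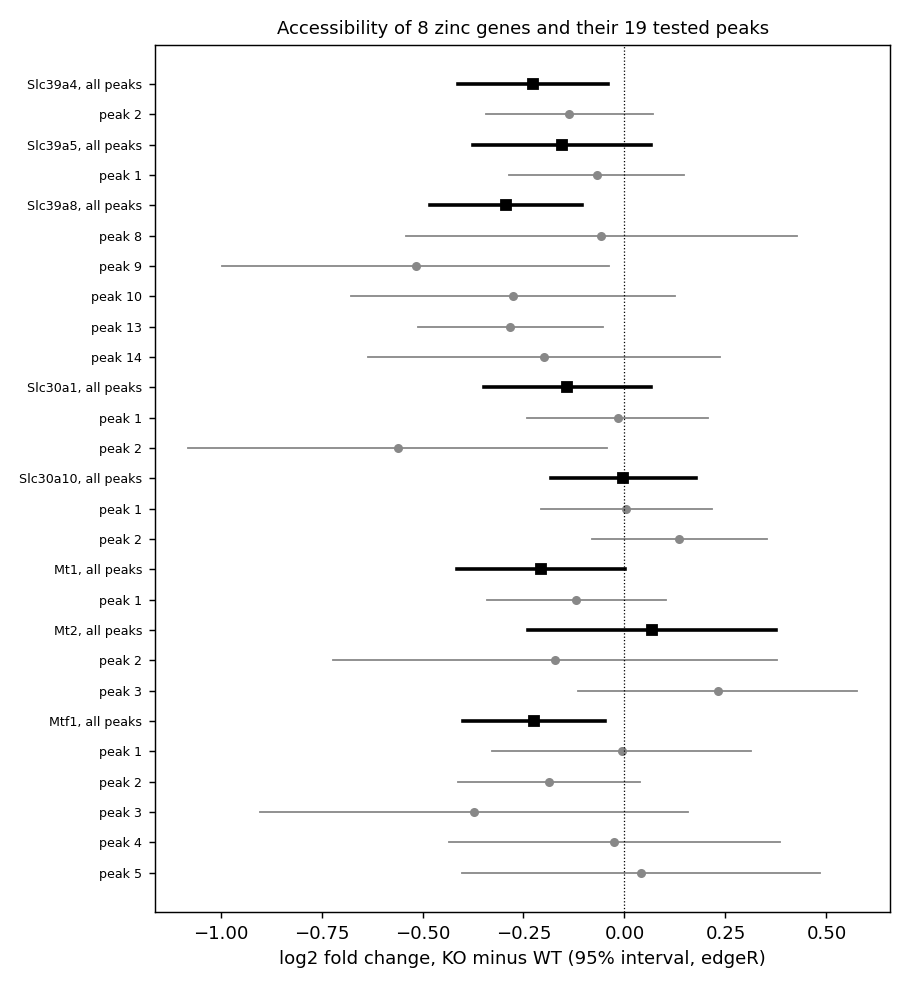
Log2 fold change (KO minus WT, horizontal axis) with its 95% interval by edgeR, for the summed counts of each gene (black squares) and for its tested peaks (grey circles). The intervals of Slc39a4, Slc39a8 and Mtf1 summed, of peaks 9 and 13 of Slc39a8 and of peak 2 of Slc30a1 leave out 0, before adjustment.

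Taken per peak, 19 of the 37 peaks had enough counts to be tested. None passed an adjusted p of 0.05 by edgeR, nor did any of the 81022 peaks tested (0%). That background moved with the fit, with 552 peaks by DESeq2, 859 with at least 10 counts in every mouse and 1880 without WT2, none of them among the peaks of the 8 genes. Before adjustment 3 of the 19 were lower at a p of 0.05 in the reported fit, the Slc39a8 peaks 9 and 13 and peak 2 of Slc30a1, and none was higher. Of all peaks 16% passed this threshold, 5.65% lower and 10.4% higher. Of the 19 log2 fold changes 15 were below 0, as were 50.4% of all peaks, and their median was -0.12. Of these peaks 9 lay in the class of peaks with the most counts, where 70.3% of peaks were below 0 and the median was -0.08. The number below 0 was 12 of 19 with loess offsets and 17 of 19 on total counts. In no gene and no tested peak did all KO mice lie on one side of all WT mice, which was so for 2.84% of genes with KO below WT and 3.18% with KO above, and for 1.21% and 1.84% of peaks. The 18 peaks that were not tested had between 0 and 36 counts per mouse. They belong to Slc39a8 (9 peaks), Slc30a1 (7), Slc39a4 (1) and Mt2 (1).

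Gene sums gave lower values than the peaks that hold nearly all of the same counts. Mt1 has 1 peak, and its log2 fold change was -0.21 as a gene and -0.12 as a peak. Slc39a5, also with 1 peak, was at -0.16 and -0.07. The counts are the same in both fits, and the library totals after filtering and the TMM factors differ. On total counts, without TMM, Mt1 was at -0.21 as a gene and -0.17 as a peak, and Slc39a5 at -0.16 and -0.13. As peaks, Mt1 was at -0.19 without WT3, and Slc39a5 ran from -0.127 without KO10 to -0.0114 without WT5. When the strongest peak of each gene stood for the gene in a table of 1 peak per gene, 1 of the 8 genes was lower before adjustment, as were 6.16% of all genes in that table. This gene was Slc39a8, at -0.27 (adjusted p = 0.184, edgeR).

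**Figure D5:**
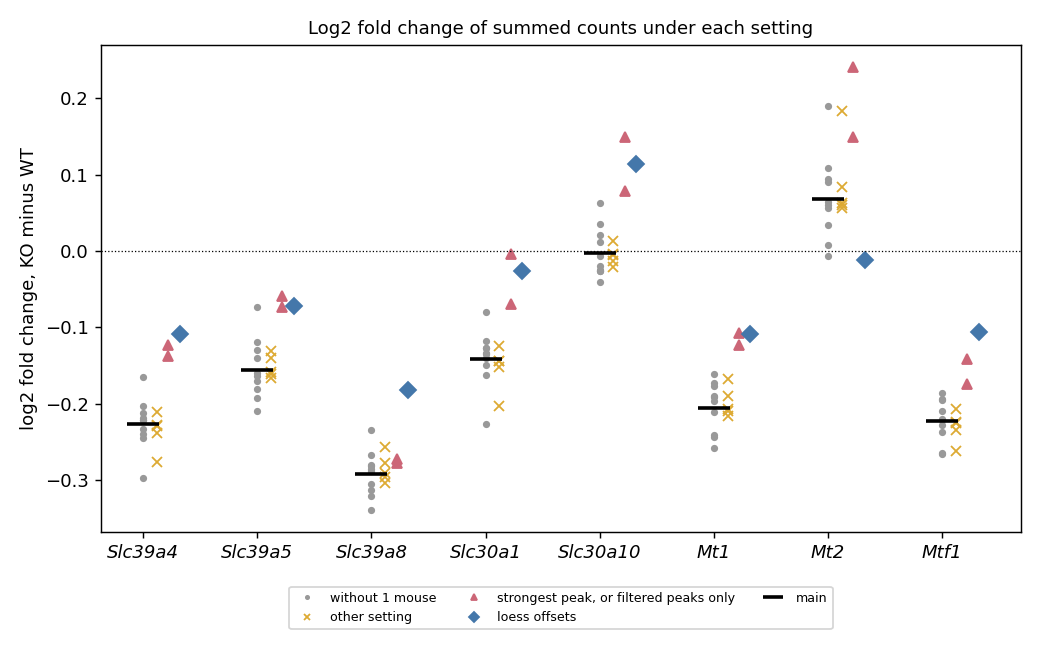
Log2 fold change of each gene (vertical axis, KO minus WT) under each setting of the analysis. Black dashes are the values given above, grey dots leave out 1 mouse, blue diamonds use loess offsets, red triangles use the strongest peak or filtered peaks alone, and yellow crosses are the other settings. Slc39a8 lay between -0.34 and -0.18 in all of them, and Slc30a10 and Mt2 fall on both sides of 0.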

How the data were processed

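ATAC-seq was run on sorted IECs of 5 WT and 5 KO mice, grouped by the genotype in the labels. From paired-end reads the authors made and deposited unnormalized counts over 1 peak set common to the mice, with an Ensembl gene ID per peak, on build mm10 per the labels. The authors also deposited a normalized signal, each count divided by 1 factor per mouse, which was not used. The aligner, peak caller, handling of duplicates and of the transposase offset, and rule linking peaks to genes are not given in the sources used here, and a gene's sum depends on them. Of 246501 entries 22 hold no value, and 594 peaks without a gene ID, with 0.780% of counts, were left out of gene sums.

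Counts were tested with edgeR 4.0.16 (glmQLFit, glmQLFTest, R 4.3.3) after filterByExpr by genotype and TMM, per gene (36715 tested) and per peak (81022 tested), in a model of genotype alone, and p-values were adjusted over all features by Benjamini-Hochberg. The script was tested on simulated counts with known changes. These were much larger than any found in the 8 genes or their tested peaks, so detection of changes this small was not tested. Log2 CPM used a prior count of 2, and exact permutation tests ran over all 252 labelings of the mice. Promoters were RefSeq windows matched by symbol and searched with Python 3.11.15. All 8 genes and every tested peak were named by rule, besides Slc39a14 and, for each gene, the gene most like it among those with a name. The genes and lists were chosen with earlier results of these data known. Alternatives were DESeq2 1.42.0, total counts, loess offsets (span 0.3), no filter, at least 10 counts in every mouse, 1 surrogate variable (sva 3.50.0), the strongest peak of each gene, filtered peaks alone, a prior count of 0.5 and leaving out each mouse. A list of 20 other zinc genes and one of 40 cell type markers were not analysed here, since 0 of either matched an ID. The p-values measure the spread between these mice, 1 library each, and precision is limited by the counts of each gene, which ran from 48 to 1424 per mouse.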

Additional observations from a re-analysis of the deposited data

Results flagged for a closer look

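Each of 27 series (8 gene sums and 19 tested peaks) was searched in both genotypes for a mouse far from the other 4 on the log2 CPM scale, by the ratio of its gap to the whole range (Dixon's test, critical value 0.71 for 5 mice). Of these 54 groups 3 were past it, and chance gives about 1 in 20. KO9 was low for Slc30a10 summed, at 6.01 against 6.28 to 6.36 in the other KO mice. KO9 was also low for peak 5 of Mtf1, at 1.81 against 2.38 to 2.55. WT3 was low for peak 1 of Mt1, at 4.82 against 5.11 to 5.21 in the other WT mice.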

How the results depend on the processing

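None of the 8 genes passed an adjusted p of 0.05 under any setting that kept all mice. The lowest there was 0.0504, for Slc39a8 by DESeq2, where 5.96% of all genes passed. With a mouse left out the count was 0 to 1 (Slc39a8 without WT2). At an unadjusted p it was 3, beside 27.5% of all genes, with 0 under loess offsets (19.6% of all genes), 1 with the strongest peak (18.1%) and 1 with filtered peaks alone (20.03%), and 2 to 4 with a mouse left out (19.2% to 30.1%). For peaks the adjusted count was 0 throughout. Over all peaks it was 0 in the reported fit, 552 by DESeq2, 394 with no filter, 859 with at least 10 counts, 5 with a surrogate variable, 1880 without WT2, 77 without WT1, 61 without KO7 and 0 otherwise. The unadjusted count of 3 of 19 (16% of all peaks) became 1 of 19 with DESeq2 (12.3%), 10 of 37 with no filter (13.8%) and 1 of 19 with a surrogate variable (10.9%). Leaving out 1 mouse gave 1 to 4 of 19 or 20 peaks, the lowest without WT3 or KO10 (15.1% and 14.1% of all peaks). Over all genes the adjusted count was 1434, and leaving out a mouse took it to 0 for KO6, KO9, KO10, WT3 and WT5 and to 3311 for WT2. It was 2188 by DESeq2, 893 on total counts, 305 under loess offsets and 32 given a surrogate variable. With the strongest peak it was 10 and with filtered peaks 268. The cause was not tested.

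The log2 fold changes of Slc39a4, Slc39a5, Slc39a8, Slc30a1, Mt1 and Mtf1 summed stayed below 0 in all 18 alternatives, but their sizes moved. Under loess offsets they were -0.11, -0.0723, -0.18, -0.0261, -0.11 and -0.11, and with the strongest peak -0.12, -0.059, -0.27, -0.0042, -0.11 and -0.17. Slc39a5 was at -0.073 without WT5, and Slc30a1 at -0.0797 without WT2 and -0.23 without WT4. Slc30a10 summed was at 0.11 with loess offsets, 0.0135 with at least 10 counts, 0.149 with the strongest peak, 0.0787 with filtered peaks and -0.0408 to 0.0632 with a mouse left out. Mt2 summed was at -0.0122 with loess offsets and -0.0063 to 0.19 with a mouse left out, lowest without WT3 and KO6 and highest without WT5. Peaks near 0 changed sign, and so did peak 2 of Mt2 (-0.17 in the reported fit) and peak 2 of Slc30a10 (0.14). With loess offsets peak 1 of Slc39a5 was at 0.0041, peak 1 of Slc30a1 at 0.0467 and peak 1 of Mtf1 at 0.0557. With at least 10 counts peak 1 of Slc30a1 was at 0.0174, and peaks 1 and 4 of Mtf1 at 0.0246 and 0.0063. With a surrogate variable peak 8 of Slc39a8 was at 0.0241, peak 2 of Mt2 at 0.145 and peak 5 of Mtf1 at -0.0429. With total counts peak 1 of Slc30a10 was at -0.0554 and peak 5 of Mtf1 at -0.0218. With no filter peaks 1 and 2 of Slc30a10 were at -0.158 and -0.0222 and peak 5 of Mtf1 at -0.122, and by DESeq2 peak 1 of Slc30a10 was at -0.0061. With a mouse left out, peak 8 of Slc39a8 ran from -0.22 to 0.0728, peak 1 of Slc30a1 from -0.0924 to 0.0631, peak 1 of Slc30a10 from -0.0502 to 0.0677, and peaks 1, 4 and 5 of Mtf1 from -0.10 to 0.10, -0.12 to 0.0588 and -0.0323 to 0.17.

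No paired analysis was possible because mice are numbered 1 to 5 in WT and 6 to 10 in KO. The other zinc genes were not run under any setting, since none matched an ID. A prior count of 0.5 left the exact permutation tests of the 8 genes on the same side of the threshold. Peaks of few counts limit what can be seen, and the peaks that were not tested held at most 36 counts per mouse.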

Other observations

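Across the 10 mice, 2 of the 28 pairs of genes passed an adjusted p of 0.05 for Pearson's r of log2 CPM. Slc39a4 and Slc30a1, the apical importer and the plasma membrane exporter, had Pearson's r = 0.91 (permutation p = 1e-04, adjusted p = 0.0028) and Spearman's rho = 0.87 (permutation p = 0.00217, adjusted p = 0.0523). Without the 2 mice farthest from the median of Slc39a4, r was 0.77. Slc39a4 and Mtf1 had r = 0.82 (permutation p = 0.00271, adjusted p = 0.0379) and rho = 0.83 (permutation p = 0.00446, adjusted p = 0.0523), and r was 0.74 without 2 mice. These values share the library and scaling factor of each mouse and include both genotypes. Within genotype, given as a description over 5 mice each, r of Slc39a4 and Slc30a1 was 0.98 in WT and 0.13 in KO mice, and r of Slc39a4 and Mtf1 was 0.84 and 0.63. The KO mice varied less, with an SD of log2 CPM of 0.047 for Slc39a4 and 0.053 for Slc30a1 against 0.20 and 0.23 in WT mice, and the difference between genotypes was not tested. Some of the 28 pairs had a negative r within a genotype, where each r rests on 5 mice. The pairs given next were not chosen by a rule set in advance. Others were negative too, such as Slc30a1 and Mt1 in KO mice (-0.90) and Slc39a8 and Mtf1 in WT mice (-0.84). For Slc39a4 and Slc39a8, r was -0.9998 in WT and -0.73 in KO mice, and 0.048 with the genotypes pooled (permutation p = 0.893, adjusted p = 0.893; Spearman's rho = -0.042, permutation p = 0.918, adjusted p = 0.952). For Slc39a8 and Slc30a1, r was -0.98 in WT and 0.43 in KO mice, and -0.13 pooled (permutation p = 0.717, adjusted p = 0.822; Spearman's rho = 0.16, permutation p = 0.658, adjusted p = 0.737). For Slc39a8 and Slc30a10, r was -0.83 in WT and -0.75 in KO mice, and -0.48 pooled (permutation p = 0.162, adjusted p = 0.378; Spearman's rho = -0.65, permutation p = 0.05005, adjusted p = 0.333). For the neighbours Mt1 and Mt2, r was 0.89 in WT and 0.88 in KO mice, and 0.51 with the genotypes pooled (permutation p = 0.133, adjusted p = 0.377; Spearman's rho = 0.37, permutation p = 0.296, adjusted p = 0.488).

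Names for other genes came only from the study's list of transcripts that differed between genotypes in RNA-seq, so most genes were not searched. Of the listed genes, 168 had a mean of at least 50 counts. Among these, the gene most like Slc39a4, Slc30a1 and Mtf1 over the 10 mice was Tmie, a gene of hair cell mechanotransduction (Pearson's r of 0.92, 0.87 and 0.78, given as a description). For Slc39a8 it was Uckl1os (0.92), for Mt1 Grm4 (0.85), for Slc30a10 Atp5f1e (0.76), for Slc39a5 Rpl34 (0.75) and for Mt2 Scgb3a1 (0.74). Each r is the highest of 168, and the median r over the 168 ran from -0.019 (Slc30a10) to 0.11 (Slc39a8).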
